A study of Homo sapiens with 9 samples.

Results

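The HOX cluster genes were taken as all protein-coding genes whose symbol is HOXA, HOXB, HOXC or HOXD followed by a number. This gave 39 of the 57757 gene IDs in the deposited tables: 11 in HOXA, 10 in HOXB, 9 in HOXC and 9 in HOXD. RNA was sequenced from NLF, an established human neuroblastoma line that the labels class as neural crest and wild type, so the line itself carried no engineered allele. Each group of cultures was exposed for 48 hours to a small interfering RNA (siRNA): a non-targeting control (siNTC), an siRNA to the T-box transcription factor gene TBX2 (siTBX2), or an siRNA to TBX2-AS1, the long noncoding RNA gene beside TBX2 (siTBX2-AS1). Each group had 3 biological replicates, all of 1 cell line, and the sources used here do not give the sequence or number of siRNAs per target. Whether replicates were separate cultures is not stated beyond that word, so p-values measure the spread between these libraries.

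HOX genes encode homeodomain transcription factors that give cells their position along the head-to-tail axis. They lie in 4 clusters, and within a cluster the order of the genes on the chromosome follows the order in which they act: low-numbered genes at the 3′ end are used early and anteriorly, high-numbered genes at the 5′ end late and posteriorly. Polycomb complexes keep unused clusters silent, trithorax-group complexes keep used genes active, retinoic acid induces the anterior genes, and the PBX, MEIS and PKNOX proteins bind DNA together with HOX proteins. Neural crest cells and the neurons derived from them carry a HOX code that reflects the axial level at which they arose.

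Libraries held 31894280 to 51434090 counts, so 3 counts, used here as the limit that a count of 0 allows, corresponded to 0.0579 to 0.0931 CPM, the count scaled to the size of the library. That limit covers counting error only. TBX2 stood at 249 to 276 CPM in siNTC and 110 to 127 in siTBX2 (fell, adjusted p = 0.00734, edgeR), and TBX2-AS1 at 34 to 37.5 CPM in siNTC and 0.714 to 5.87 in siTBX2-AS1 (fell, adjusted p = 0.0184, edgeR). In siTBX2-AS1, TBX2 stood at 173 to 228 CPM, below all siNTC libraries. That difference was not called (log2 fold change -0.32, adjusted p = 0.172, edgeR). TBX2-AS1 stood at 31.7 to 38.7 CPM in siTBX2 and overlapped siNTC. Of 8 markers of neuroblastoma identity, 7 passed the filter on low counts, and their summed level was 864 to 956 CPM in siNTC, 957 to 1080 in siTBX2 and 885 to 1000 in siTBX2-AS1. TH, which encodes the enzyme that begins catecholamine synthesis, stayed under the filter in every library. Summed leukocyte markers stood at 0.552 to 1.74 CPM over all 9 libraries. Mesenchymal markers summed to 2770 to 3530 CPM, Schwann cell and melanocyte markers to 12.6 to 23.7 CPM and epithelial markers to 3.24 to 11.6 CPM. Most of the mesenchymal sum came from VIM and FN1, with siNTC means of 1430 and 1300 CPM. The other members had siNTC means of 139 (TWIST1), 86.1 (COL1A1), 6.26 (COL1A2) and 1.6 CPM (PRRX1).

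Most of the HOX genes were not detected or barely detected in NLF cells. Of the 39 genes, 17 (43.6%) had 0 counts in all 9 libraries, against 14.6% of 19240 protein-coding genes. Another 11 had a few counts and did not pass the filter, the highest reaching 23 counts over all libraries and 6 in any single library. The other 11 genes (28.2%, against 69.1% of protein-coding genes) passed the filter and were tested. These were HOXC4, HOXC5, HOXC6, HOXC8, HOXC9, HOXC13, HOXD3, HOXD4, HOXD8, HOXD9 and HOXD13. The members together received 4623 counts, between 329 and 613 per library, or 9.74 to 13.6 CPM.

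The detected genes all lay in HOXC and HOXD. The HOXC cluster, on chromosome 12, held 57.8% of all HOX counts and 6 of the 11 tested genes. The HOXD cluster, on chromosome 2, held 40.6% of the counts and the other 5 tested genes. HOXA, on chromosome 7, held 61 counts (1.32%) and HOXB, on chromosome 17, held 13 counts (0.281%), and no gene of either cluster was tested. By position, 1 of 8 anterior genes (paralogs 1 to 3), 6 of 15 central genes (4 to 8) and 4 of 16 posterior genes (9 to 13) were tested.

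**Figure D1:**
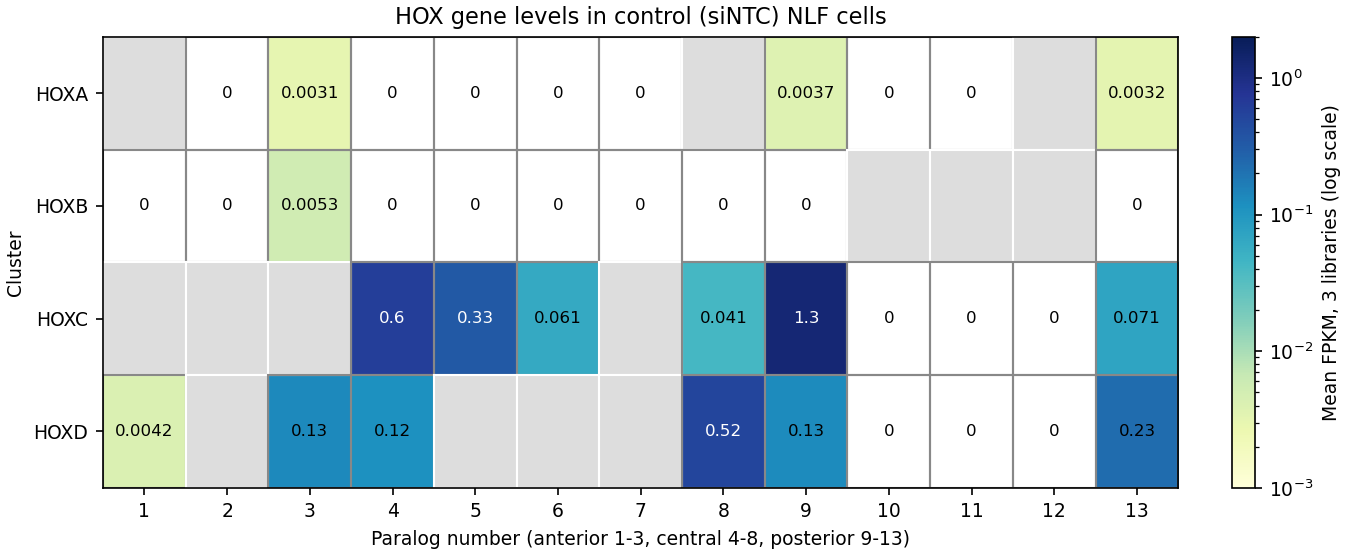
Mean FPKM (fragments scaled to transcript length and library size, colour on a log scale) of each HOX gene in the 3 siNTC libraries, by cluster (rows) and paralog number (columns). White cells are genes listed at 0 and grey cells are paralogs the human genome lacks or values not reported here; HOXC9 is the only gene above 1 FPKM, and paralogs 10 to 12 are at 0 in HOXC and HOXD on either side of measured genes.

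In both clusters with signal, the genes from 10 to 12 formed a gap between measured neighbours. HOXC10, HOXC11 and HOXC12 had 0 counts in all 9 libraries, whereas HOXC9 on their 3′ side had 1344 counts and HOXC13 on their 5′ side had 130. HOXD11 and HOXD12 likewise had 0 counts in every library and HOXD10 had 5 counts, all in siTBX2 replicate 3, whereas HOXD9 had 253 counts and HOXD13 had 296.

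Levels between genes were compared per transcript length, in FPKM. HOXC9, a posterior gene that specifies thoracic identity in motor neurons and has been tied to neuronal differentiation of neuroblastoma cells, was the highest member, at 1.29, 1.36 and 1.15 FPKM in siNTC replicates 1, 2 and 3. It was the only member with a siNTC mean of at least 1 FPKM, and 32.5% of all tested genes had a lower one; their median was 3.88 FPKM. HOXC4, the member at the 3′ end of the HOXC cluster, followed at 0.904, 0.3 and 0.608 FPKM, and HOXD8 at 0.739, 0.539 and 0.288 FPKM. HOXC9 lay above both in every siNTC library, whereas the ranges of HOXC4 and HOXD8 overlapped.

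HOXC5, which together with its paralog HOXA5 maintains phrenic motor neurons, stood at 0.349, 0.285 and 0.362 FPKM in siNTC, and its range overlapped those of HOXC4 and HOXD8 above it. HOXD13, known for its part in forming the digits, stood at 0.172, 0.28 and 0.232 FPKM. Below it came HOXD3 at 0.232, 0.0873 and 0.0834 FPKM and HOXD9 at 0.0786, 0.124 and 0.183 FPKM. Neither of these neighbours was separated from HOXD13 by more than the spread of its libraries.

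The 4 remaining tested genes were at the lower end of what was measured. HOXD4, a retinoic acid-responsive gene of the hindbrain and neck region, was listed at 0, 0.129 and 0.217 FPKM in siNTC. HOXC13, which regulates keratin genes of the hair, stood at 0.0479, 0.078 and 0.0875 FPKM, HOXC6 at 0.0264, 0.0997 and 0.0584 FPKM, and HOXC8 at 0.0419, 0.0822 and 0 FPKM. The ranges of these genes overlapped, and no order among them can be read from 3 libraries.

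Start-site windows of 4 measured genes are shown, because a pair of HOXC genes shares one and the HOXD pair has very different CpG content. The windows run from 250 bases before to 50 bases after the RefSeq start (assembly GRCh38.p14), on the plus strand, 5′ to 3′, with each CpG dinucleotide in capitals. HOXC4 and HOXC5 have the same window in that table, chr12:54016638-54016937, and in GENCODE release 29 HOXC5 lies within the span of HOXC4. There HOXC5 begins at 54032853, downstream of this window, so the window does not cover that start. In the summaries below the shared window counts for both genes. The HOXD8 window is chr2:176129455-176129754 and the HOXD4 window is chr2:176151300-176151599.
HOXC4 and HOXC5: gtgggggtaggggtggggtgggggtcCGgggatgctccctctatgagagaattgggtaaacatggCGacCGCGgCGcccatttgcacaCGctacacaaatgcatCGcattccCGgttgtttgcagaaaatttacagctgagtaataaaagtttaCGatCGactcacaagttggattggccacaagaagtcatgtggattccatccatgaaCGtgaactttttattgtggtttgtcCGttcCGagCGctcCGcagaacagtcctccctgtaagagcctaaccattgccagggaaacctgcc
HOXD8: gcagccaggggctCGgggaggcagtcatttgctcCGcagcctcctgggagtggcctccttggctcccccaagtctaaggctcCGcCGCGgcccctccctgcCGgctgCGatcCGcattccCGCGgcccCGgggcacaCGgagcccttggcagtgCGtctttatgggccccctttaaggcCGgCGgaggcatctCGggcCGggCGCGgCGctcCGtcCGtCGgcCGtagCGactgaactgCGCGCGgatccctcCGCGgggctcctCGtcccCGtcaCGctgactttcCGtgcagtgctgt
HOXD4: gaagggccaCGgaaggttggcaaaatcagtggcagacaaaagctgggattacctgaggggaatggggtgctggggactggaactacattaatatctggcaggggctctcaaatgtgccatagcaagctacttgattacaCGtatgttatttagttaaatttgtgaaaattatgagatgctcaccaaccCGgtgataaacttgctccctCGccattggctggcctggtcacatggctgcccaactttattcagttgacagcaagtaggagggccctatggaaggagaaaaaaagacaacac

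The shared HOXC4 and HOXC5 window had 15 CpG dinucleotides, the HOXD8 window 34 and the HOXD4 window 4. HOXD8 was the more highly expressed of the pair from HOXD, at a mean of 0.522 FPKM against 0.115 for HOXD4 in siNTC. Across the 20 HOX genes in the table, CpG content did not separate tested from untested genes: 6 tested genes had 4 to 34 and 14 untested genes had 11 to 44. The highest content, 44, belonged to HOXA13, which had 9 counts in all. The median HOX window held 22.5 CpG dinucleotides, against 14 over all 27305 windows, with GC contents of 58.0% and 58.3%. The T-box half-site GGTGTGA, searched on both strands, was in 0 of the 20 HOX windows and in 3.43% of all windows. HOXC6, HOXC8, HOXC9, HOXC13 and HOXD9 were not among the 20.

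In HOXA, 4 genes (HOXA2, HOXA4, HOXA5 and HOXA6) had 0 counts throughout. HOXA3 had the most, 23 counts spread over 8 libraries and never above 4 in any of them, and HOXA7, HOXA9, HOXA10, HOXA11 and HOXA13 had 3 to 9 counts each. Summed over the cluster, HOXA gave 2 to 8 counts in the siNTC libraries, 8 to 11 in siTBX2 and 3 to 8 in siTBX2-AS1, too few to compare. In HOXB, 8 of 10 genes had 0 counts throughout, from HOXB4 to HOXB13 and HOXB2; HOXB1 had 6 counts and HOXB3 had 7. The 3 siTBX2 libraries had 0 counts over the whole HOXB cluster, against up to 5 in siNTC and up to 3 in siTBX2-AS1, a difference not detectable at this depth. HOXD1, the 3′ member of HOXD, had 5 counts.

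Few HOX genes differed between groups, and 1 call was made. In siTBX2 against siNTC, 0 of the 11 tested HOX genes were called at an adjusted p under 0.05 (edgeR quasi-likelihood test with Benjamini-Hochberg adjustment over all 18367 tested genes), where 1.61% of all tested genes were called. In siTBX2-AS1 against siNTC, 0 of 11 were called, where the background was 4.57%. In siTBX2-AS1 against siTBX2, 1 of 11 was called, HOXC13, where the background was 5.53%. DESeq2 and limma-voom called 0 HOX genes in both comparisons with siNTC. DESeq2 gave an adjusted p to only 6 of the 11 in siTBX2 against siNTC. It gave none to HOXC13 in any comparison, so it could not call that gene. The comparisons share libraries, the first and second those of siNTC, so their values are given side by side and not as separate evidence. In RNA from whole cultures, fewer cells that express a gene and less RNA per cell cannot be told apart.

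At an unadjusted p under 0.05, the counts of HOX genes were 1 of 11 in siTBX2 against siNTC (all tested genes 16.0%), 1 of 11 in siTBX2-AS1 against siNTC (18.4%) and 2 of 11 in siTBX2-AS1 against siTBX2 (20.1%). Libraries of the compared groups did not overlap for 1 gene (22.8% of all tested genes), 2 genes (24.0%) and 3 genes (26.7%) in the same order. These counts are near or below the background. The median log2 fold change of the tested HOX genes was 0.18, -0.12 and -0.03, against 0.0, 0.01 and 0.01 over all tested genes, with 6, 3 and 3 of the 11 genes above 0.

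**Figure D2:**
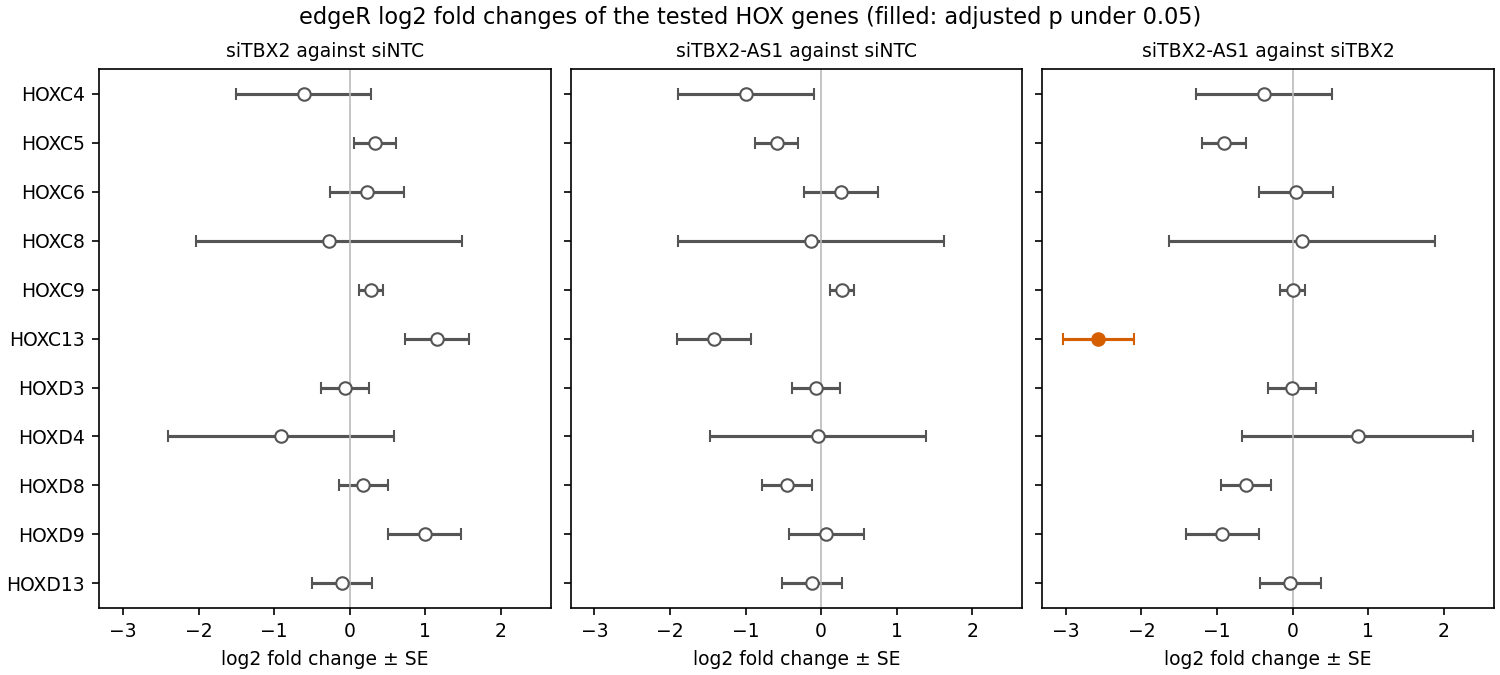
Log2 fold changes (x axis) with standard errors (bars) of the 11 tested HOX genes (y axis) in the 3 comparisons, from edgeR on all 9 libraries; the filled point has an adjusted p under 0.05. HOXC13 lies at 1.15, -1.42 and -2.57, and the bars of HOXC8 and HOXD4 are the widest.

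HOXC13, at the 5′ end of its cluster (chr12, 53938765 to 53946544, plus strand, GENCODE release 29 on GRCh38), was lower after siTBX2-AS1 than after siTBX2. Its level was 0.177, 0.302 and 0.339 CPM in siNTC, 0.382, 0.645 and 0.789 CPM in siTBX2, and 0.0773, 0.0759 and 0.155 CPM in siTBX2-AS1. The 3 groups did not overlap, with siTBX2 highest, siNTC between and siTBX2-AS1 lowest. The siNTC levels rested on 9, 13 and 15 counts, the siTBX2 levels on 18, 27 and 36, and the siTBX2-AS1 levels on 4, 3 and 5, so the lowest group was close to the limit of 3 counts. None of the siTBX2-AS1 libraries reached the filter's cutoff of 0.228 CPM, and the gene was tested because 2 siNTC and 3 siTBX2 libraries did.

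Between the 2 knockdowns, the mean HOXC13 level fell from 0.605 ± 0.207 to 0.103 ± 0.0454 CPM (SD, n = 3 each), with a fitted log2 fold change of -2.57 (SE 0.47, adjusted p = 0.0185, edgeR). Of all tested genes, 3.5% were called lower in that comparison. Against siNTC (0.273 ± 0.0852 CPM), HOXC13 differed by 1.15 on the log2 scale in siTBX2 (SE 0.42, adjusted p = 0.222, edgeR) and by -1.42 in siTBX2-AS1 (SE 0.49, adjusted p = 0.16, edgeR). Neither passed the threshold. A two-sided exact permutation test gave p = 0.1 in each of the 3 comparisons, the smallest value that 3 against 3 libraries allow.

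The HOXC13 call was lost when any of 4 libraries was left out: the adjusted p from edgeR was 0.0576 without siTBX2 replicate 2 (log2 fold change -2.52), 0.0645 without siTBX2 replicate 3 (-2.33), 0.0849 without siTBX2-AS1 replicate 1 (-2.39) and 0.0705 without siTBX2-AS1 replicate 2 (-2.41). DESeq2 gave a log2 fold change of -2.61 (SE 0.65, unadjusted p = 6.43e-05, Wald test) with no adjusted p, so HOXC13 could not be called by it. HOXC13-AS, whose exons overlap 172 bases of HOXC13 on the opposite strand, had 0 counts in all libraries. VWF, a gene of endothelial cells, had the same order of groups, at 0.643 ± 0.0837 CPM in siNTC, 1.58 ± 0.743 in siTBX2 and 0.298 ± 0.217 in siTBX2-AS1, and fell between the knockdowns by 2.35 on the log2 scale (SE 0.51, adjusted p = 0.0349, edgeR). The 3 endothelial markers found of 4 summed to 0.557 to 0.724 CPM in siNTC, 1.19 to 2.5 in siTBX2 and 0.124 to 0.541 in siTBX2-AS1. CDH5 and KDR stayed under the cutoff in every library, so VWF gave nearly all of each sum. The share of all tested genes with this order of groups was not counted, and the part of such RNA in the HOXC13 values was not tested.

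**Figure D3:**
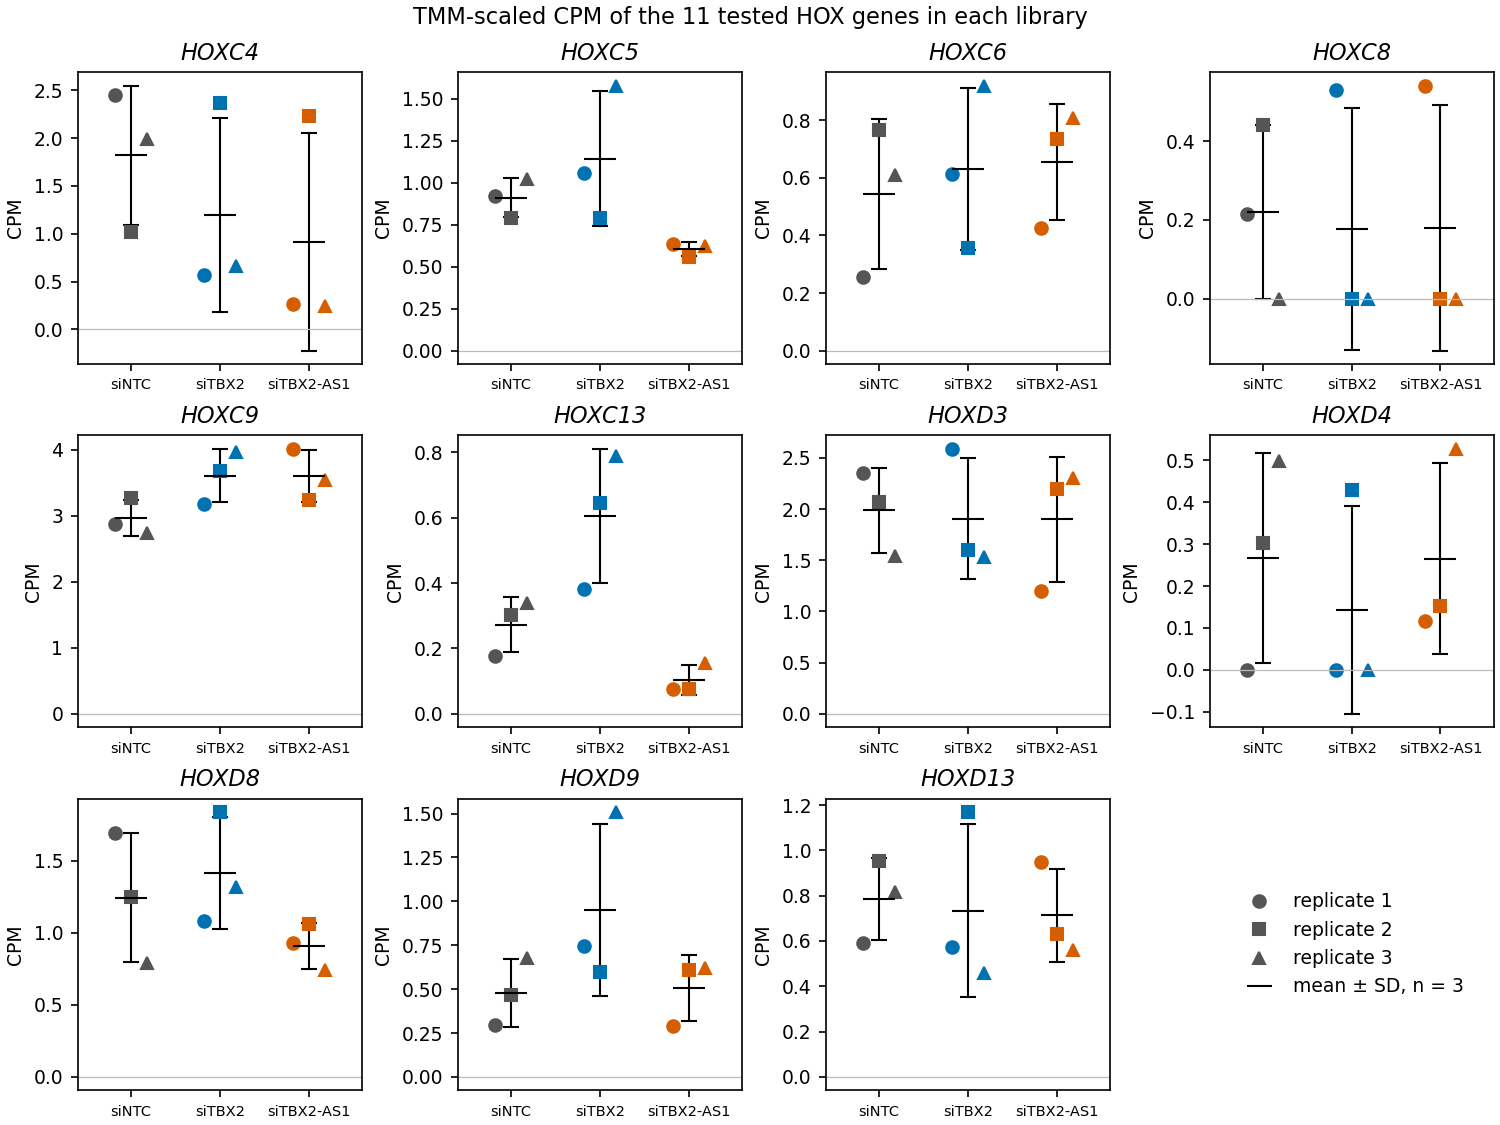
CPM after TMM scaling (y axis, from 0 or below on a linear scale) of the 11 tested HOX genes in every library, by group (x axis), with the mean and SD of 3 libraries (bars) and a marker shape per replicate number. HOXC13 is separated in all 3 groups, from 0.0759 to 0.789 CPM, and HOXC4 has 1 high library in each knockdown (2.37 and 2.23 CPM) and 2 low ones.

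The central HOXC genes included the other non-overlapping difference from siNTC. HOXC5 stood at 0.922, 0.789 and 1.02 CPM in siNTC, 1.06, 0.788 and 1.58 CPM in siTBX2, and 0.637, 0.557 and 0.621 CPM in siTBX2-AS1. All 3 siTBX2-AS1 libraries were below all 6 others, which overlapped each other. The log2 fold change was -0.59 against siNTC (SE 0.29, adjusted p = 0.333, edgeR) and -0.91 against siTBX2 (SE 0.29, adjusted p = 0.111, edgeR), so HOXC5 was not called; the exact permutation p was 0.1 in both. For siTBX2 against siNTC it was 0.33 (SE 0.28, adjusted p = 0.644, edgeR), but 0.03 without siTBX2 replicate 3 and 0.52 without siTBX2 replicate 2.

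HOXC4 varied more between replicates than between groups. It stood at 2.45, 1.02 and 1.99 CPM in siNTC, 0.573, 2.37 and 0.658 CPM in siTBX2, and 0.27, 2.23 and 0.248 CPM in siTBX2-AS1. Replicate 2 was the highest library of each knockdown and the lowest of siNTC, and all groups overlapped. The log2 fold changes against siNTC were -0.61 in siTBX2 (SE 0.89, adjusted p = 0.818, edgeR) and -0.99 in siTBX2-AS1 (SE 0.90, adjusted p = 0.643, edgeR), and between the knockdowns -0.38 (SE 0.90, adjusted p = 0.874, edgeR). Without replicate 2 of siTBX2 the first value was -1.58, without replicate 2 of siTBX2-AS1 the second was -2.81, and with other libraries left out they reached -0.29 and -0.56.

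The annotation of these genes overlaps. In GENCODE release 29, HOXC4 and HOXC6 share 484 bases on the same strand, 17.8% of the exon bases of HOXC4 and 13.7% of those of HOXC6, so reads from the shared stretch may be credited to either. HOXC5 shares 59.9% of its exon bases with a second entry of that name and 33.9% with AC012531.2. Both lie on the same strand and had 0 counts. HOXC6, a gene of the forelimb level, stood at 0.255, 0.766 and 0.611 CPM in siNTC, 0.615, 0.358 and 0.921 CPM in siTBX2, and 0.425, 0.734 and 0.807 CPM in siTBX2-AS1. Its groups overlapped, with log2 fold changes of 0.23, 0.26 and 0.04 in the 3 comparisons (SE 0.49 each). Together, HOXC4, HOXC5 and HOXC6 received 185, 111 and 160 counts in the siNTC libraries, 106, 147 and 144 in those of siTBX2, and 69, 139 and 54 in those of siTBX2-AS1. The division of reads among these genes was not tested.

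HOXC9 had the smallest error of all HOX genes. Its level was 2.88, 3.27 and 2.74 CPM in siNTC, 3.18, 3.68 and 3.97 CPM in siTBX2, and 4.02, 3.24 and 3.54 CPM in siTBX2-AS1. In each knockdown 2 of 3 libraries lay above all of siNTC, and the third lay below siNTC replicate 2. The log2 fold change was 0.28 in each comparison with siNTC (SE 0.16; adjusted p = 0.441 for siTBX2 and 0.422 for siTBX2-AS1, edgeR), and the means of 3.61 ± 0.398 and 3.6 ± 0.393 CPM (SD, n = 3) in the knockdowns differed by less than the spread. HOXC8, which directs motor neuron pools of the forelimb level, was at 0 in 5 of 9 libraries. The siNTC libraries held 11, 19 and 0 HOXC8 counts, the siTBX2 libraries 25, 0 and 0, and the siTBX2-AS1 libraries 28, 0 and 0, so each knockdown had it in replicate 1 alone. Its log2 fold changes carried an SE of 1.76, so a difference between groups was not detectable.

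Of the HOXD genes, none was called in any comparison. HOXD3, the anterior gene with the most counts of the cluster, stood at 2.35, 2.07 and 1.54 CPM in siNTC, 2.59, 1.6 and 1.53 CPM in siTBX2, and 1.2, 2.2 and 2.3 CPM in siTBX2-AS1. The groups overlapped almost fully, with log2 fold changes of -0.06, -0.07 and -0.01 (SE 0.32 each). On the FPKM scale its value in siTBX2 against siNTC changed sign, to 0.44 on log2(FPKM + 0.1). HOXD3 shares 2206 exon bases, 62.2% of its own, with AC009336.2 on the same strand, and HOXD4 shares 80.5% of its own with that gene. AC009336.2 is not among the gene IDs of the deposited tables. HOXD3 also shares 379 exon bases, 10.7% of its own, with HOXD-AS2 and 134 with HAGLR, both on the opposite strand. The use of strand in counting is not given in the sources used here, so reads of the opposite-strand overlaps cannot be told apart.

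HOXD8 stood at 1.69, 1.25 and 0.792 CPM in siNTC, 1.08, 1.84 and 1.32 CPM in siTBX2, and 0.927, 1.06 and 0.745 CPM in siTBX2-AS1. The siTBX2-AS1 libraries were all below those of siTBX2 by a narrow gap and overlapped siNTC. The log2 fold change between the knockdowns was -0.62 (SE 0.33, adjusted p = 0.339, edgeR), against siNTC 0.18 in siTBX2 and -0.45 in siTBX2-AS1 (adjusted p = 0.547, edgeR). With 1 library left out, these 3 values ran from -0.78 to -0.39, -0.08 to 0.46 and -0.7 to -0.16.

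HOXD9, a posterior gene of the lumbar level, stood at 0.294, 0.464 and 0.679 CPM in siNTC, 0.743, 0.597 and 1.51 CPM in siTBX2, and 0.29, 0.607 and 0.621 CPM in siTBX2-AS1. The siTBX2 libraries included the highest value and overlapped both other groups. The log2 fold change was 0.99 in siTBX2 against siNTC (SE 0.48, adjusted p = 0.354, edgeR), 0.07 in siTBX2-AS1 against siNTC and -0.93 between the knockdowns (SE 0.48, adjusted p = 0.333, edgeR). Without siTBX2 replicate 3, the highest library, the first was 0.49 and the last -0.42.

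HOXD13, the 5′ member of its cluster, stood at 0.589, 0.951 and 0.815 CPM in siNTC, 0.573, 1.17 and 0.46 CPM in siTBX2, and 0.947, 0.633 and 0.559 CPM in siTBX2-AS1. The groups overlapped, and the log2 fold changes were -0.10, -0.12 and -0.03 (SE 0.40 each). HOXD13 and HOXC13 are paralogs at the 5′ ends of their clusters, and the order of groups seen for HOXC13 was not seen for HOXD13; the difference between the 2 genes was not tested. HOXD4 was listed at 0 in 3 libraries and had at most 22 counts, with SEs of 1.43 to 1.53 on the log2 scale.

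Summed over whole clusters, HOXC gave 6.91, 6.59 and 6.7 CPM in siNTC, 6.34, 7.84 and 7.92 CPM in siTBX2, and 5.97, 6.83 and 5.37 CPM in siTBX2-AS1. HOXD gave 4.93, 5.04 and 4.37 CPM in siNTC, 4.99, 5.64 and 4.93 CPM in siTBX2, and 3.53, 4.66 and 4.75 CPM in siTBX2-AS1. In both clusters each knockdown overlapped siNTC. Between the knockdowns, HOXC overlapped, whereas all 3 siTBX2-AS1 libraries were below all 3 siTBX2 libraries in HOXD, by a narrow gap; the sums were not tested. HOXC9 alone gave 1344 of the 2672 HOXC counts, and HOXD3 gave 759 of the 1877 HOXD counts.

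**Figure D4:**
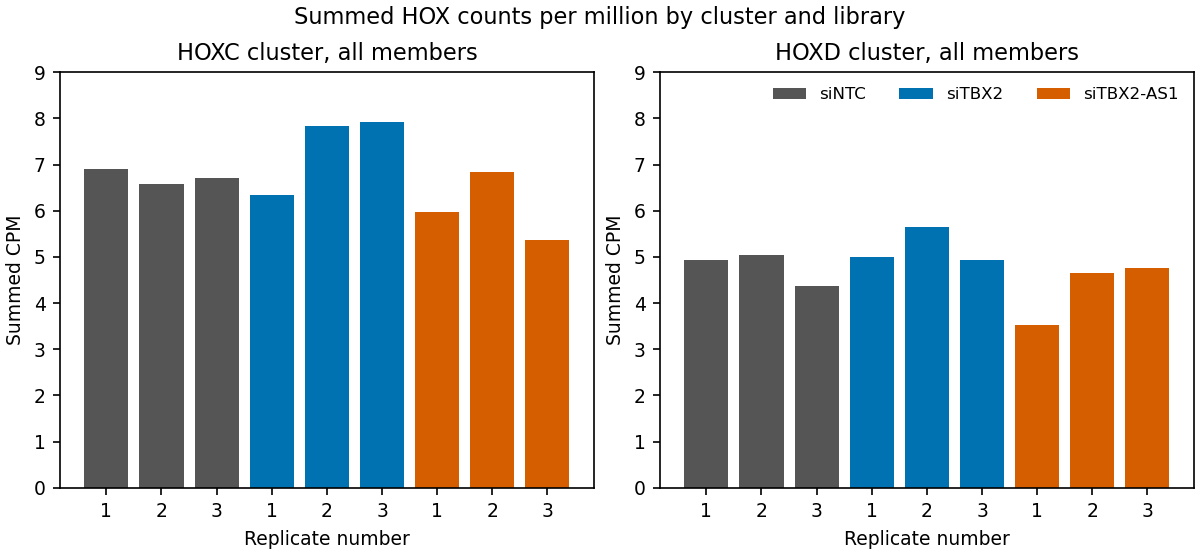
Summed CPM (y axis) of all members of the HOXC and HOXD clusters in each library, by replicate number (x axis) and group (colour). HOXC runs from 5.37 to 7.92 CPM and HOXD from 3.53 to 5.64 CPM, with overlap between siNTC and each knockdown; the siTBX2-AS1 sums of HOXD are all below those of siTBX2.

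Most noncoding RNAs of the clusters had no signal. Of 24 on the list, 22 were found in the tables, 14 had 0 counts in all libraries, HOTAIR among them, and 6 had counts without passing the filter, led by HOTAIRM1 with 55 counts in all. The 2 tested were HOXD-AS2 and HAGLR, both antisense RNAs of the HOXD cluster. Neither was called in any comparison, where 1.61%, 4.57% and 5.53% of all tested genes were called. HOXD-AS2 stood at 1.46 ± 0.386 CPM in siNTC, 1.68 ± 0.299 in siTBX2 and 2.02 ± 0.303 in siTBX2-AS1 (SD, n = 3), with all groups overlapping. HAGLR stood at 0.118, 0.0464 and 0.181 CPM in siNTC, 0.191, 0.287 and 0.307 CPM in siTBX2, and 0.193, 0.177 and 0.31 CPM in siTBX2-AS1. Its siTBX2 libraries lay above those of siNTC, from 2 to 14 counts each, with a log2 fold change of 1.16 (SE 0.51, adjusted p = 0.311, edgeR).

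The DNA-binding partners of HOX proteins were nearly all detected, and none was called. Of 9 genes of the PBX, MEIS and PKNOX families, 8 were tested, with median log2 fold changes of 0.15, 0.09 and -0.06. In each comparison 0 of 8 were called, where 1.61%, 4.57% and 5.53% of all tested genes were called. In siNTC, MEIS1 stood at 390 ± 71.9 CPM, MEIS2 at 276 ± 46.7 CPM and PBX3 at 104 ± 22.0 CPM (SD, n = 3).

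Among regulators of HOX genes, a few members changed in each list. Of 16 tested Polycomb genes, 1 rose in each comparison with siNTC, KDM2B, which encodes a protein that recruits a Polycomb complex to unmethylated CpG islands: it went from 55.4 ± 2.66 CPM to 78.9 ± 2.87 in siTBX2 (log2 fold change 0.51, adjusted p = 0.0255, edgeR) and to 72.3 ± 4.59 in siTBX2-AS1 (0.38, adjusted p = 0.0314, edgeR). None fell, and 0 of 16 were called between the knockdowns. Over all tested genes, 1.61%, 4.57% and 5.53% were called in the 3 comparisons. EZH2, the methyltransferase of Polycomb repressive complex 2, stood at 240 ± 4.16, 213 ± 5.78 and 246 ± 11.5 CPM in siNTC, siTBX2 and siTBX2-AS1 and was not called.

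Of 14 trithorax-group and activating genes, 0 were called in siTBX2 against siNTC. In siTBX2-AS1 against siNTC, PSIP1, whose protein tethers the MLL complex to chromatin, fell from 163 ± 3.7 to 99.7 ± 8.13 CPM (by edgeR -0.71 on the log2 scale, SE 0.08, adjusted p = 0.00301), and DOT1L, the histone H3 lysine methyltransferase linked to HOXA expression in leukaemia, rose from 33.8 ± 1.75 to 45.5 ± 3.98 CPM (0.43, adjusted p = 0.0353, edgeR). Between the knockdowns, PSIP1 (-0.76, adjusted p = 0.00197) and WDR5, a core subunit of MLL complexes (-0.40, adjusted p = 0.0255), were lower after siTBX2-AS1 by edgeR. The other members were not called, so the counts were 0, 2 and 2 of 14 where 1.61%, 4.57% and 5.53% of all tested genes were called.

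In the retinoic acid pathway, 8 of 18 genes were tested. RDH10, which makes retinaldehyde in the step before retinoic acid, fell in siTBX2-AS1 from 20.7 ± 2.48 to 9.27 ± 0.687 CPM (by edgeR -1.16 on the log2 scale, SE 0.13, adjusted p = 0.00238) and was also lower than in siTBX2 (-1.32, adjusted p = 0.00115, edgeR). CRABP2, a carrier that brings retinoic acid to its nuclear receptors, was lower in siTBX2-AS1 than in siTBX2, at 16.3 ± 5.94 against 38.5 ± 6.13 CPM (-1.24, SE 0.25, adjusted p = 0.027, edgeR). The counts called were thus 0, 1 and 2 of 8 in the 3 comparisons, where 1.61%, 4.57% and 5.53% of all tested genes were called. Of 9 other upstream regulators, 4 were tested and 1 was called, between the knockdowns only (background 5.53%): NR6A1, a nuclear receptor of trunk development, which rose between siTBX2 and siTBX2-AS1 (0.51, SE 0.12, adjusted p = 0.0462, edgeR). The 3 CDX genes, which induce trunk HOX genes, were not among those tested.

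Some genes that flank the clusters changed. Of 20 flanking genes, 16 were tested. CBX1, a heterochromatin protein gene beside HOXB, fell in siTBX2-AS1 from 228 ± 16.7 to 112 ± 19.2 CPM (by edgeR -1.02 on the log2 scale, SE 0.13, adjusted p = 0.00488) and was lower than in siTBX2 (-1.07, adjusted p = 0.00324, edgeR), while HOXB itself had 13 counts in all. LNPK, an endoplasmic reticulum gene beside HOXD, fell in siTBX2 from 98.1 ± 7.55 to 69.8 ± 2.25 CPM (-0.49, adjusted p = 0.0284, edgeR) and stood above that level in siTBX2-AS1 (0.52, adjusted p = 0.00847, edgeR). TTLL6, also beside HOXB, fell in siTBX2 from 0.354 ± 0.0319 to 0.0818 ± 0.0333 CPM (-2.08, SE 0.39, adjusted p = 0.0451, edgeR). All its siTBX2 libraries, at 0.0439 to 0.106 CPM, were under the filter's cutoff of 0.228 CPM. They were close to the limit that a count of 0 allows, so the size of this fall is uncertain. The siNTC libraries, at 0.317 to 0.373 CPM, were above the cutoff. Over the 16 genes, 0 rose and 2 fell in siTBX2, 0 rose and 1 fell in siTBX2-AS1, and 1 rose and 1 fell between the knockdowns, with median log2 fold changes of -0.05, -0.12 and 0.11. Of all tested genes, 1.61%, 4.57% and 5.53% were called in either direction.

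The 3′ UTRs of the members were searched for 3 sequences of 7 bases, chosen with earlier results of these data known. TTAAACT was in 8 of the 39 HOX UTRs (20.5%, against 17.6% of 18757 genes), CAGAATG in 7 (17.9%, against 15.5%) and AGACGTA in 0 (against 1.57%). Of the 11 tested members, 3 carried one of them, shown here with the match in capitals and 9 bases on each side, in DNA letters from GENCODE release 29 transcripts.
HOXD4: ggcgagtcaTTAAACTtatgaaaat
HOXD8: gcagcttccTTAAACTtaagaaaaa
HOXD13: ccattaggaCAGAATGgttttcagt

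The HOXD4 match began at base 267 of a UTR of 284 bases, that of HOXD8 at base 628 of 1083, and that of HOXD13 at base 417 of 1208. HOXD4, HOXD8 and HOXD13 were not called in any comparison, and HOXC13, the member that was, held none of the 3 sequences in its UTR of 1288 bases. Matches were also listed for the called genes of the regulator and flanking lists. CBX1, PSIP1 and RDH10 held TTAAACT, NR6A1 held TTAAACT and CAGAATG, and KDM2B held AGACGTA. LNPK, TTLL6, WDR5, DOT1L and CRABP2 had no match listed. Over all genes searched, TTAAACT was in 17.6%, CAGAATG in 15.5% and AGACGTA in 1.57%. These matches are a description of letters and say nothing of what binds there.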

How the data were processed

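The authors deposited 2 tables, one of expected counts per gene and one of FPKM. Both the expected counts and the FPKM were used as deposited: the counts are whole numbers that follow library depth and needed no rounding; FPKM was used for levels between genes and as an alternative scale. Per the submitters' processing notes, FastQC, STAR 2.4.2a, StringTie 1.3.3 and hg19 were used; annotation, counting program and strand use are not given in the sources used here. Tests used edgeR 4.0.16 in R 4.3.3: filterByExpr (10 counts, here 0.228 CPM), TMM, quasi-likelihood F tests (robust) on all 9 libraries, Benjamini-Hochberg adjustment over 18367 of 57757 genes, calls at adjusted p under 0.05. The procedure was tested on simulated data. CPM are TMM-scaled.

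The members, lists, motifs and comparisons were chosen with earlier results of these data known. All 39 HOX genes could be named, with full values for called genes, those with unadjusted p under 0.05 and the 3 highest per cluster; of each list, up to 4 called members per comparison, and the tested noncoding RNAs. Other genes named for context (EZH2, MEIS1, MEIS2, PBX3, the mesenchymal markers, and the other HOX genes with all values) were chosen after their values were seen. MIR10A, MIR196B, PCGF2 and PECAM1 did not match. The values of some genes are not reported here. Positions and exons are from GENCODE release 29 (GRCh38, not hg19), and promoters from RefSeq GRCh38.p14. Alternatives were DESeq2 1.42.0, limma-voom (limma 3.58.1), other scalings and filters, 2-group fits, the replicate number as a block, FPKM with limma (pseudocounts 0.1 and 1), and leaving out each library.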

Additional observations from a re-analysis of the deposited data

How the results depend on the processing

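Of 39 HOX genes, 28 did not pass the filter, 17 of them at 0 counts in every library, and the tested ones had few counts. HOXC13 kept its direction in all 3 comparisons under every alternative in which it was fitted. Its call between the knockdowns held with limma-voom, with no filter, with upper-quartile scaling or DESeq2 size factors, with 2 groups, the replicate block and log2(FPKM + 0.1), with adjusted p from 0.00797 to 0.041. HOX genes called in siTBX2-AS1 against siTBX2 went from 1 to 0 with DESeq2, with a filter of 1 CPM in 3 libraries and with log2(FPKM + 1). They ranged from 0 to 1 when 1 library was left out. DESeq2 gave HOXC13 a log2 fold change of -2.61 between the knockdowns (SE 0.65, unadjusted p = 6.43e-05, Wald test). It gave HOXC13 no adjusted p in any comparison, so HOXC13 could not be called there. With the 1 CPM filter HOXC13 was not tested, and in the other cases the cause was not tested. HOX calls against siNTC stayed at 0 in all alternatives. At a mean of at least 0.5 FPKM in place of 1, 3 HOX genes passed in siNTC in place of 1. TMM, DESeq2 and upper-quartile scaling left the median of all genes between -0.015 and 0.027 (log2).

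Calls over all genes depended on the fit, and the cause was not tested. In siTBX2 against siNTC they went from 295 to 1200 (DESeq2), 184 (no filter), 52 (2 groups), 33 and 37 (log2 FPKM + 0.1 and + 1) and 44 to 177 with 1 library left out. In siTBX2-AS1 against siNTC they went from 840 to 1802 (DESeq2), 461 (2 groups), 344 and 325 (FPKM) and 402 to 654. Between the knockdowns they went from 1015 to 2153 (DESeq2), 421 and 441 (FPKM) and 469 to 918.

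With the replicate number as a block, calls over all genes became 873, 1741 and 2084, the HOX calls stayed at 0, 0 and 1, and HOXC13 had adjusted p of 0.0759, 0.0564 and 0.00797 by edgeR. Libraries with the same number correlated at 0.095 to 0.273 in their deviations from the group means, and others at -0.248 to 0.012. All 9 same-number pairs had a higher correlation than any other pair, and 9 of 9 libraries correlated best with their own number. Libraries with the same number thus shared part of their variation. The main fit left this out because the lowest pair was not over 0.1. What the numbers mark is not stated in the labels.

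Of 593 fold changes of single HOX genes under an alternative, 533 kept their direction and their side of the threshold, 5 lost a call and 55 changed sign; every change of sign concerned a gene that was not called. HOXD3 in siTBX2 against siNTC became 0.44 and 0.1 (FPKM). HOXD4 in siTBX2-AS1 against siNTC became 0.96 (voom), 0.37 (block) and 0.05 (log2 FPKM + 0.1). Between the knockdowns, HOXC6 became -0.02 and -0.01 (FPKM), HOXD3 0.01 (upper quartile) and 0.01 (block), and HOXD13 0.1 (voom), 0.05 (block) and 0.01 (log2 FPKM + 0.1). With 1 library left out, the log2 fold changes in siTBX2 against siNTC ran from -0.15 to 0.54 for HOXC6, -6.28 to 0.66 for HOXC8, -0.36 to 0.08 for HOXD3, -0.08 to 0.46 for HOXD8 and -0.61 to 0.15 for HOXD13. In siTBX2-AS1 against siNTC they ran from -0.08 to 0.58 for HOXC6, -6.26 to 0.79 for HOXC8, -0.25 to 0.16 for HOXD3, -0.98 to 0.79 for HOXD4, -0.19 to 0.39 for HOXD9 and -0.41 to 0.03 for HOXD13. For HOXD9, values that kept their sign ran from 0.49 to 1.31 in siTBX2 against siNTC and from -1.17 to -0.42 between the knockdowns. Others between the knockdowns ran from -2.18 to 0.57 for HOXC4, -0.24 to 0.41 for HOXC6, -5.97 to 6.11 for HOXC8, -0.17 to 0.27 for HOXD3, -0.07 to 6.51 for HOXD4 and -0.29 to 0.47 for HOXD13.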
